A study of Mus musculus with 6 samples.

Results

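Transcripts of 6 STAT transcription factors (Stat2, Stat3, Stat4, Stat5a, Stat5b and Stat6) and of 3 genes that feed back on them (Cish, Socs1 and Socs3) were compared between naive CD4 T cells that lacked or carried Ly-6C, a lipid-anchored surface protein. The 9 genes were taken by symbol from the 19938 genes of the array table, and all 9 were measured. Ly-6C-negative and Ly-6C-positive cells, with 3 arrays each labelled as biological replicates, came from peripheral lymph nodes of C57BL/6 mice aged 6 weeks that carry the Foxp3-GFP reporter, in which a fluorescent protein marks cells with Foxp3, the factor of regulatory T cells. Apart from Ly-6C the gate was the same for both: cells positive for CD4 and the T cell receptor beta chain, low for CD44, and negative for CD8, CD25 and Foxp3. The labels do not say how many mice gave the cells of an array, so the spread between arrays may be partly technical. Values are log2 expression as deposited, and differences are those of Ly-6C-negative cells minus those of Ly-6C-positive cells. Levels of different genes come from different probes and are not set against each other.

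Cytokine receptors carry Janus kinases (JAKs), which phosphorylate STAT proteins when a cytokine binds. Phosphorylated STATs pair up, enter the nucleus and switch on target genes, among them those of the SOCS family and of CIS (encoded by Cish), whose proteins bind the receptor or the kinase and dampen the signal. In naive T cells the pathway is best known for the survival signal of IL-7, which runs through STAT5. The arrays measured transcripts, and phosphorylation of the STAT proteins was not measured.

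Cish, Stat5b, Stat2 and Stat5a were each higher on all 3 Ly-6C-negative arrays than on any Ly-6C-positive array, by 1.12-fold to 1.17-fold, and none of the 9 genes passed the test over all genes. The threshold was a limma adjusted p of 0.05 with Benjamini-Hochberg adjustment over 19938 genes. In all, 29 genes passed it, or 0.145%, and 0 of the 9, whose adjusted p ran from 0.577 to 0.996. With the replicate number as a block 41 genes passed, or 0.206%, and again 0 of the 9. At an unadjusted limma p under 0.05, 3 of the 9 were counted, Stat5b, Cish and Stat2, all higher in Ly-6C-negative cells, where 6.71% of all genes lay under that p in either direction. In the blocked fit 4 of the 9 were counted, Stat4 being added as lower in Ly-6C-negative cells, against 7.31% of all genes. Groups that did not overlap were found in 4 of the 9, against 12.6% of all genes in either direction and 6.12% in the direction of higher in Ly-6C-negative cells. The median difference of the 9 genes was 0.16, with 6 of 9 above 0, beside -0.0048 over all genes, of which 47.8% lay above 0. These counts describe the members and carry no test of their own. An exact permutation test of 3 arrays against 3 cannot give a 2-sided p below 0.1.

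**Figure D1:**
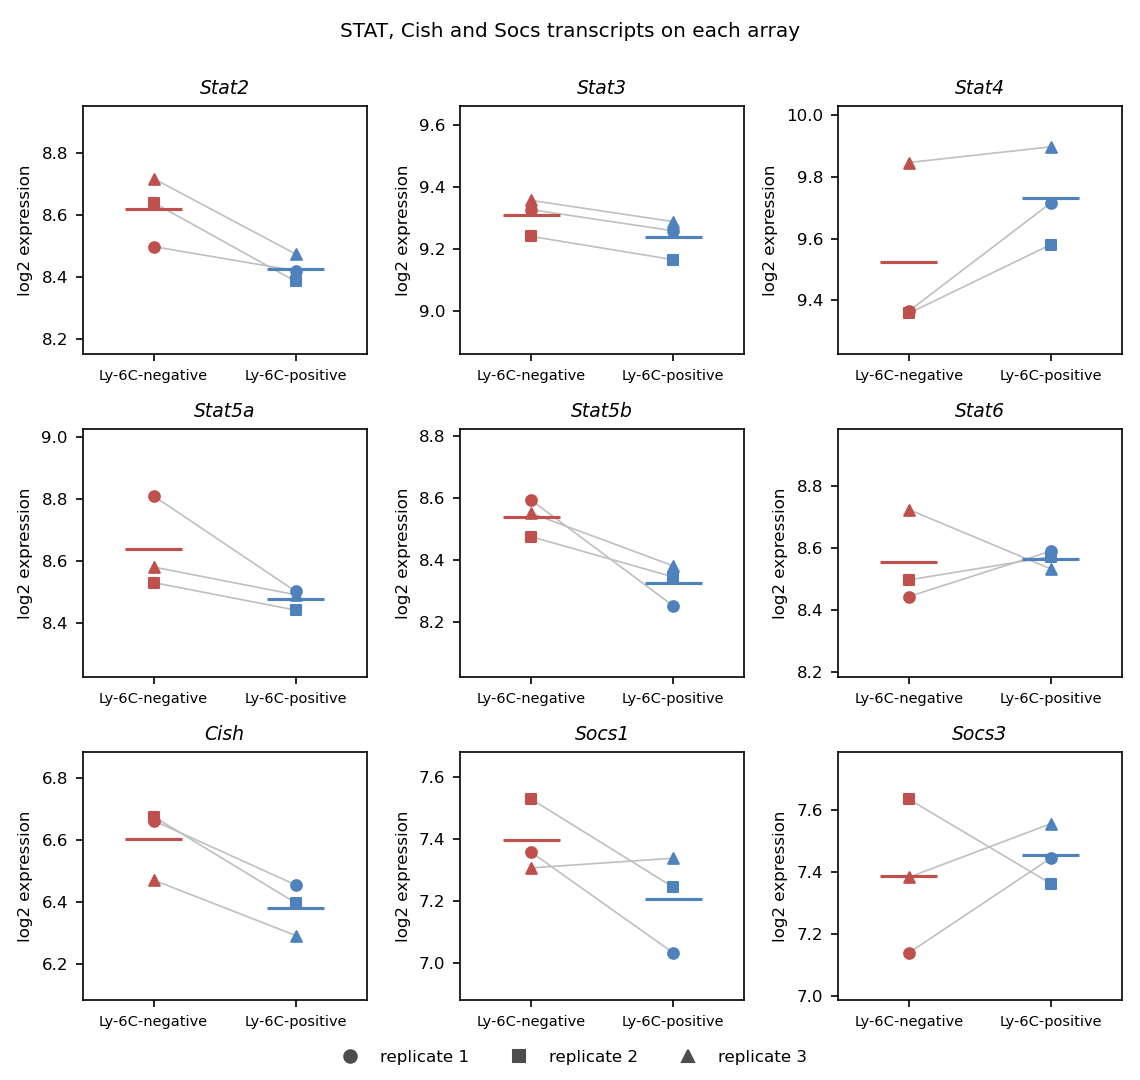
Log2 expression of the 9 genes on the 6 arrays, with Ly-6C-negative arrays at the left of each panel and Ly-6C-positive arrays at the right. Each symbol is 1 array, its shape gives the replicate number, grey lines join arrays of the same number, short bars are group means, and every panel spans the same height. In the panels of Stat2, Stat5a, Stat5b and Cish all Ly-6C-negative points lie above all Ly-6C-positive points, while the groups overlap in the other 5.

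As background to the feedback loop, the promoters of the 9 genes were searched for the letters that STAT dimers are known to bind. RefSeq windows of GRCm38.p6, from 250 bases before to 50 bases after the start of transcription, were given for all 9 genes, in 12 windows, 2 each for Stat4, Stat5a and Stat5b. The searches were for TTCNNNGAA, the general STAT site, for TTCNNNNGAA, the form that STAT6 prefers, and for GAAANNGAAA, the core of the interferon-response element bound by complexes of STAT2, on both strands. The stretches of the Cish, Socs3, Socs1 and Stat2 windows that held a match are shown 5′ to 3′, with the matches in capitals.
Cish (chr9:107296649-107296678, + strand): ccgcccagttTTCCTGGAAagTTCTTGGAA
Socs3 (chr11:117969457-117969556, - strand): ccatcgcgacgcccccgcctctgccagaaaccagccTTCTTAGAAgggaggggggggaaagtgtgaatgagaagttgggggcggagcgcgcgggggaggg
Socs1 (chr16:10785547-10785646, - strand): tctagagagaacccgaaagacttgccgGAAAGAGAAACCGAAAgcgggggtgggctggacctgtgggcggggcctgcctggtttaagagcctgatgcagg
Stat2 (chr10:128270258-128270357, + strand): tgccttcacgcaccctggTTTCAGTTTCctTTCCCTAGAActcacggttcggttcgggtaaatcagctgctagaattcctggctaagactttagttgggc
Cish held 2 matches of TTCNNNGAA that begin at the start base and at base 12 of the transcript, and Socs3 held 1 that begins 154 bases before the start. A match of TTCNNNGAA stood in 8.30% of all 32851 windows, and 2 or more stood in 0.457%. Socs1 held 2 matches of GAAANNGAAA that overlap each other, which 3.44% of all windows held at least once and 0.225% at least 2 times. Stat2 held GAAANNGAAA on the opposite strand and, 2 bases further on, TTCNNNNGAA, which stood in 6.95% of windows. A window of Stat4 held GAAANNGAAA, and the windows of Stat3, Stat5a, Stat5b and Stat6 held none of these letters. A match is a description of the sequence and not a measured binding site.

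Both STAT5 genes, whose products carry the signals of IL-2, IL-7 and IL-15, lay higher in Ly-6C-negative cells without overlap. Stat5b measured 8.59, 8.48 and 8.55 on the Ly-6C-negative arrays and 8.25, 8.35 and 8.38 on the Ly-6C-positive arrays. The lowest Ly-6C-negative array thus stood above the highest Ly-6C-positive array, and the means were 8.54 ± 0.060 and 8.33 ± 0.067 (SD, n = 3 each). Its difference was 0.21 with a 95% interval, not adjusted for the number of genes, of 0.059 to 0.37, or 1.16-fold (limma adjusted p = 0.577).

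Stat5a measured 8.81, 8.53 and 8.58 on the Ly-6C-negative arrays and 8.50, 8.44 and 8.49 on the Ly-6C-positive arrays. Ly-6C-negative replicate 1 was the highest, and the other two Ly-6C-negative arrays lay just above the Ly-6C-positive ones. The difference of Stat5a was 0.16 with an interval of -0.024 to 0.35, or 1.12-fold (limma adjusted p = 0.805), and without Ly-6C-negative replicate 1 it was 0.077. Stat5a and Stat5b are neighbours on chromosome 11 and encode close relatives. Their differences were set against each other through the Stat5b minus Stat5a value within an array, which averaged -0.10 ± 0.10 in Ly-6C-negative cells and -0.15 ± 0.085 in Ly-6C-positive cells (SD, n = 3 each). That contrast was 0.052, and within replicate numbers it was 0.033, 0.041 and 0.081. Its exact 2-sided permutation p was 0.5, in a design that could give no p under 0.1, so whether the STAT5 genes changed unequally could not be settled.

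Stat3, the factor of IL-6, IL-10 and IL-21 signals and the next gene on chromosome 11 after Stat5a, differed little. It measured 9.33, 9.24 and 9.36 on the Ly-6C-negative arrays and 9.26, 9.17 and 9.29 on the Ly-6C-positive arrays, and the groups overlapped. Its difference was 0.071 with an interval of -0.083 to 0.22 (limma adjusted p = 0.910), and without Ly-6C-positive replicate 2 it was 0.035. Within replicate numbers the Ly-6C-negative array was above the Ly-6C-positive array each time, by 0.068, 0.075 and 0.069.

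Stat2, which joins the complex that type I interferons activate, was higher in Ly-6C-negative cells without overlap. It measured 8.50, 8.64 and 8.72 on the Ly-6C-negative arrays and 8.42, 8.39 and 8.48 on the Ly-6C-positive arrays. Ly-6C-negative replicate 1 came within 0.024 of the highest Ly-6C-positive array. The difference was 0.19 with an interval of 0.023 to 0.36, or 1.14-fold (limma adjusted p = 0.675).

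Stat4, the factor of IL-12 signals in T helper 1 cells, was the member with the largest difference in the other direction. It measured 9.37, 9.36 and 9.85 on the Ly-6C-negative arrays and 9.72, 9.58 and 9.90 on the Ly-6C-positive arrays. The groups overlapped because replicate 3 was the highest array in both. The difference was -0.21 with an interval of -0.51 to 0.093, or 1.15-fold lower (limma adjusted p = 0.853). Within replicate numbers Stat4 was lower in Ly-6C-negative cells each time, by -0.35, -0.22 and -0.051, and with the replicate number as a block the interval was -0.39 to -0.024 (limma adjusted p = 0.621).

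Stat6, the factor of IL-4 signals in T helper 2 cells, had a difference of -0.010 with an interval of -0.20 to 0.18 (limma adjusted p = 0.996). Its Ly-6C-negative arrays ranged from 8.44 to 8.72, on both sides of the Ly-6C-positive arrays, which ranged from 8.53 to 8.59. The sign of a difference this small was not fixed: it was 0.046, 0.019 or 0.0025 when replicate 1 or replicate 2 of the Ly-6C-negative arrays or replicate 1 of the Ly-6C-positive arrays was left out.

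Among the feedback genes, Cish had the largest difference of the 9 members. The mean of Cish over the 6 arrays was 6.49, just above the level of the median gene at 6.37. CIS is known as an inhibitor that STAT5 induces and that binds cytokine receptors. Cish, whose start holds the STAT letters shown above, measured 6.66, 6.68 and 6.47 on the Ly-6C-negative arrays and 6.46, 6.40 and 6.29 on the Ly-6C-positive arrays. Replicate 3 was the lowest array of each group, and its Ly-6C-negative value lay 0.016 above the highest Ly-6C-positive array. The means were 6.60 ± 0.11 and 6.38 ± 0.083 (SD, n = 3 each), a difference of 0.22 with an interval of 0.042 to 0.40, or 1.17-fold (limma adjusted p = 0.633). Within replicate numbers the difference was 0.21, 0.28 and 0.18. In 5 of the 9 genes, Stat3 and the 4 without overlap, the Ly-6C-negative array was above its same-numbered counterpart in all 3 pairs, as it was in 13.3% of all genes. For the 4 this follows from the lack of overlap, so the pair count adds only Stat3.

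Socs1, whose product inhibits JAKs directly and restrains interferon signals, measured 7.36, 7.53 and 7.31 on the Ly-6C-negative arrays and 7.03, 7.25 and 7.34 on the Ly-6C-positive arrays. The groups overlapped at replicate 3, where the Ly-6C-negative array was below the Ly-6C-positive one by 0.031. The difference was 0.19 with an interval of -0.019 to 0.40 (limma adjusted p = 0.786), and without Ly-6C-positive replicate 1 it was 0.11.

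Socs3, an inhibitor of signals through the shared receptor chain gp130, varied most between Ly-6C-negative arrays among the feedback genes. It measured 7.14, 7.64 and 7.38 on the Ly-6C-negative arrays and 7.45, 7.36 and 7.56 on the Ly-6C-positive arrays. Both the lowest and the highest value came from Ly-6C-negative arrays. The difference was -0.069 with an interval of -0.33 to 0.19 (limma adjusted p = 0.953), and it was 0.054 without Ly-6C-negative replicate 1. Socs3 alone had a second probe set, which differed by -0.084.

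**Figure D2:**
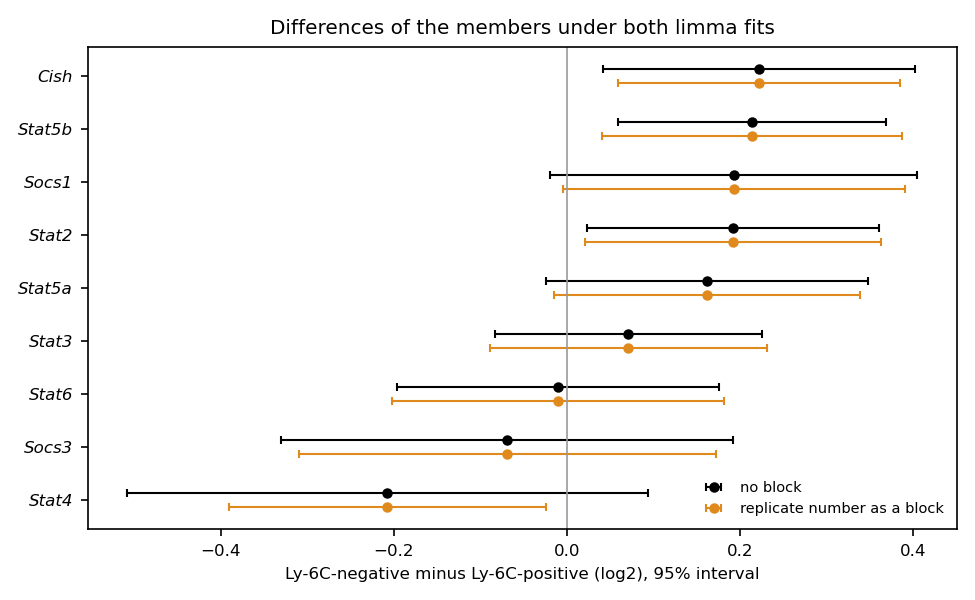
Ly-6C-negative minus Ly-6C-positive differences of the 9 genes on the log2 scale (points) with 95% intervals not adjusted for the number of genes (bars), from the limma fit without a block (black) and with the replicate number as a block (orange). The intervals of Cish, Stat5b and Stat2 lie above 0 in both fits, that of Stat4 lies below 0 with the block, and all others span 0.

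Each interval gives a range for a single gene under the limma fit without a block. The intervals are not adjusted for the number of genes and rest on a spread that may be partly technical. They therefore set no firm limit on a difference that was missed. The highest upper bound among the 9 genes was 0.40, or 1.32-fold, for Socs1, and the lowest lower bound was -0.51, or 0.703 times, for Stat4. The receptor chain gene Il2rb, the beta chain that IL-2 and IL-15 use to activate STAT5, lay outside that range. Il2rb measured 7.54, 7.64 and 7.50 on the Ly-6C-negative arrays and 6.39, 6.54 and 6.38 on the Ly-6C-positive arrays, a difference of 1.12 with an interval of 0.96 to 1.29, or 2.18-fold (limma adjusted p = 0.000860). It passed with each array left out in turn, at limma adjusted p up to 0.0215.

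Around the 9 genes, 99 of 105 listed genes of the same pathway were measured. Of the 99, 2 passed the threshold, as did 0.145% of all genes: Il2rb higher and Il18r1 lower in Ly-6C-negative cells. The median difference of the 99 was 0.018, with 59 above 0, where 47.8% of all genes were. An unadjusted limma p under 0.05 was found for 20, against 6.71% of all genes. Without overlap, 17 were higher and 7 lower, beside 1220 and 1296 of all 19938 genes. The lists were chosen with earlier results of these data known. Of 8 receptor chains that signal through STAT5, Il2rb passed, and the median was -0.049. Of the 8, 3 were lower without overlap, where 1296 of all 19938 genes were, and none of these 3 passed. Named after their values were seen, they were Il15ra, the alpha chain of the IL-15 receptor, at -0.24 (limma adjusted p = 0.588), Il9r at -0.13 and Csf2rb at -0.098. None of 8 receptor chains that signal through STAT3 passed, nor of 4 through STAT4 or STAT6, nor of 4 interferon receptor chains. The smallest p in these lists belonged to Il6st, which encodes gp130, at 0.17, to Il13ra1 at -0.18 and to Ifnar2, a chain of the type I interferon receptor, at 0.22. Their limma adjusted p ran from 0.641 to 0.848. Il13ra1 was dim, with group means of 4.49 in Ly-6C-negative and 4.66 in Ly-6C-positive cells, where the median gene stood at 6.37.

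None of 3 measured JAK genes passed, with Jak2 at 0.22 (limma adjusted p = 0.718). None of 5 further STAT and SOCS genes passed, with Socs6 at 0.19 (limma adjusted p = 0.749). Of 12 other negative regulators none passed, and Sh2b3, an adaptor that restrains JAK2, was higher without overlap at 0.26 (limma adjusted p = 0.578).

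Of 15 genes known as targets of IL-2 and STAT5, some of them induced and Bcl6 repressed, Il18r1, a chain of the IL-18 receptor, passed and was lower. Il18r1 measured 8.74, 8.69 and 8.98 on the Ly-6C-negative arrays and 9.35, 9.54 and 9.53 on the Ly-6C-positive arrays, a difference of -0.67 (limma adjusted p = 0.0325). The call of Il18r1 was lost when Ly-6C-negative replicate 1 was left out (limma adjusted p = 0.236), and without Ly-6C-positive replicate 1, 2 or 3 the adjusted p was 0.116, 0.267 or 0.275. The difference in these 4 fits was -0.73 to -0.63. The list of 15 was chosen with earlier results of these data known, so its counts carry no test. Its median was 0.11, with 11 above 0 and 4 higher without overlap, as were 6.12% of all genes. Those 4, named after their values were seen, were Id2, a transcriptional inhibitor, at 0.58, Tnfrsf4, the gene of OX40, at 0.39, Bcl6, a transcriptional repressor, at 0.30, and Bcl2, a survival gene, at 0.21. Id2 passed with the replicate number as a block at limma adjusted p = 0.0158, which made 2 of 15, and missed the threshold in the fit that had none, at 0.144; the other 3 passed in neither fit.

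Of 9 measured genes tied to STAT3 none passed, with Il21, the gene of a helper cytokine, at 0.38 (limma adjusted p = 0.364). Il21 was dim, with group means of 4.55 in Ly-6C-negative and 4.16 in Ly-6C-positive cells, where the median gene stood at 6.37. Of 10 genes tied to STAT4 or STAT6 none passed; the smallest p was that of the kinase gene Map3k8 at 0.29 (limma adjusted p = 0.357), and 5 were higher without overlap, where 6.12% of all genes were. Of 22 measured interferon target genes none passed. Their median was 0.015, with 13 above 0. Of the 22, 3 were higher and 2 lower without overlap, as were 1220 and 1296 of all 19938 genes. The smallest p was that of Oasl2, which was lower at -0.31 (limma adjusted p = 0.285). The other 4, named after their values were seen, were Mx2 at 0.34, Ifih1 at 0.18, Oasl1 at 0.16 and Irf1 at -0.17.

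**Figure D3:**
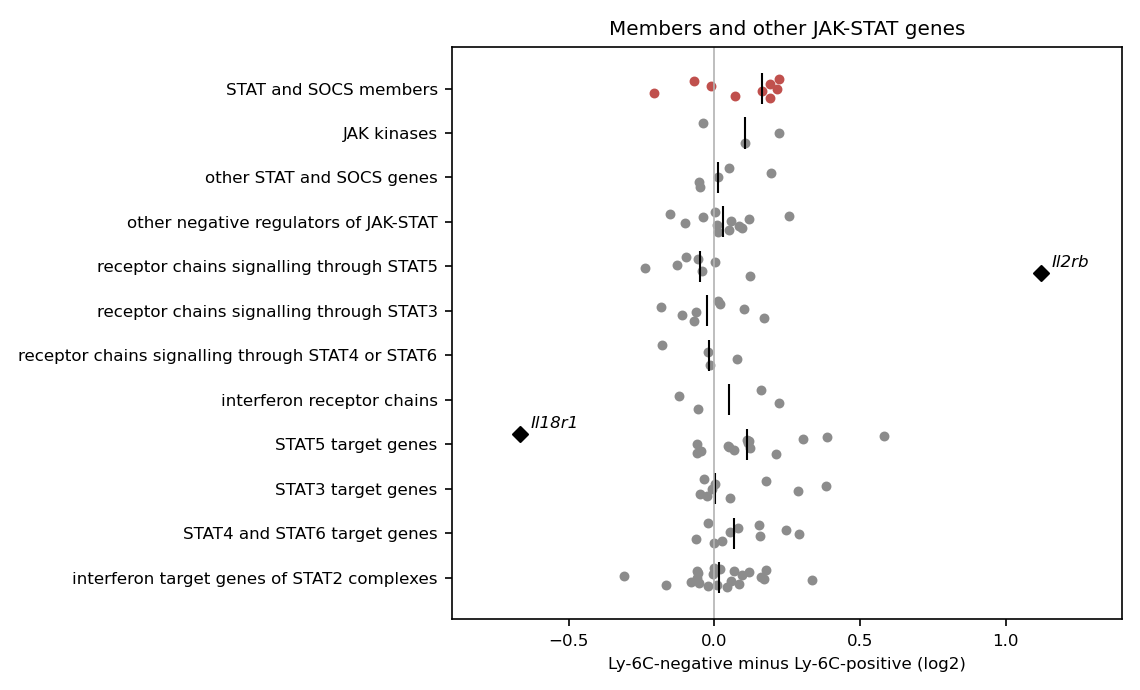
Ly-6C-negative minus Ly-6C-positive differences on the log2 scale (horizontal axis) of the 9 genes (red points, top row) and of other genes of the pathway in 11 lists (grey points), with the median of each list as a vertical bar. Black diamonds are genes past the limma threshold, Il2rb at 1.12 and Il18r1 at -0.67, and the 9 genes lie between -0.21 and 0.22.

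Across genes, r was 0.993 to 0.998 between arrays of 1 group and 0.994 to 0.997 between arrays of both. On the leading principal component, with 34.7% of the variance, Ly-6C-negative replicate 2 scored 19.9 and the other arrays -10.0 to -0.26; without that array Cish differed by 0.19, Stat5b by 0.25, Stat2 by 0.18 and Stat5a by 0.22. Of 8 regulatory T cell markers, 4 passed and were higher in Ly-6C-negative cells, where 0.145% of all genes passed in either direction. They were Ctla4 at 1.34, Izumo1r at 1.03, Ikzf2 at 0.63 and Gpr83 at 0.56. Nrp1 was higher without overlap at 0.33 but did not pass. Foxp3 itself was at 0.013 (limma adjusted p = 0.995), Il2ra at 0.12 and Tnfrsf18 at -0.012, all with overlap. The summed linear signal of the list was 2193 to 2545 in Ly-6C-negative cells and 1449 to 1522 in Ly-6C-positive cells. Of 7 NK cell markers, 2 passed and were lower, Klrd1 and Gzma, with summed signals of the list of 469 to 583 and 801 to 988. Prf1 was lower without overlap but did not pass in the fit without a block. Ncr1, Klrb1c and Klrk1 differed by -0.054, 0.0083 and -0.053, and all were dimmer than the median gene. Gzma was dimmer too, with group means of 5.42 in Ly-6C-negative and 6.11 in Ly-6C-positive cells, where the median gene stood at 6.37. None of 7 measured naive CD4 markers, 4 CD8 T cell markers, 6 measured B cell markers or 8 myeloid markers passed. The summed signals were 20509 to 22736 in Ly-6C-negative cells and 21154 to 22380 in Ly-6C-positive cells for the naive markers, 372 to 456 and 422 to 459 for the CD8 markers, 249 to 257 and 256 to 257 for the B cell markers, and 261 to 275 and 263 to 273 for the myeloid markers. All naive CD4 markers, and none of the B cell and myeloid markers, were brighter than the median gene. In bulk samples fewer cells of a type and less RNA per cell cannot be told apart, and the part that the regulatory T cell and NK markers have in the values of the 9 genes was not tested.

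**Figure D4:**
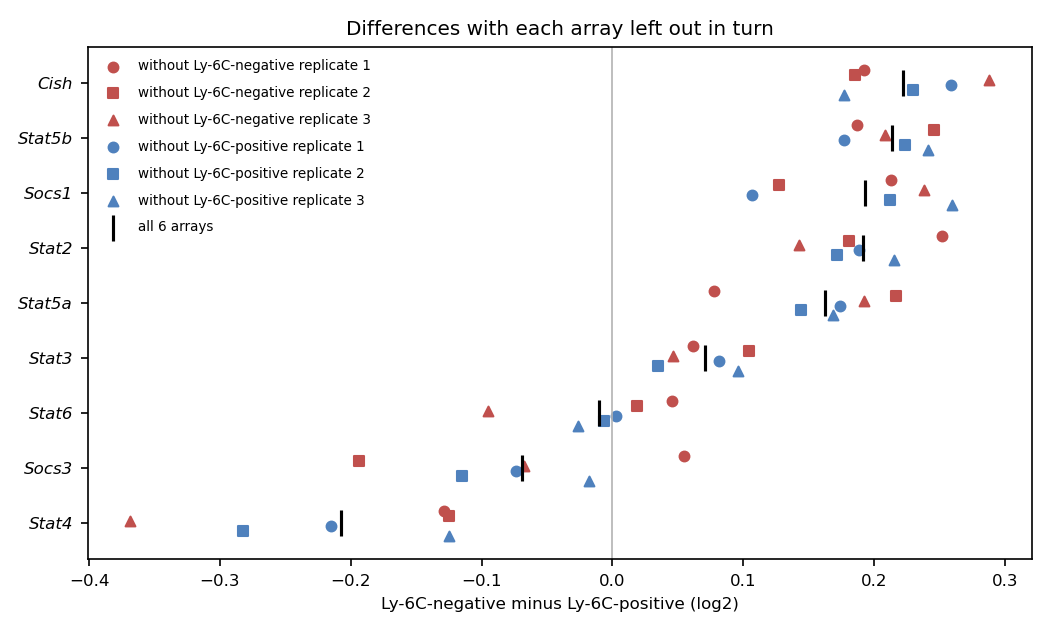
Ly-6C-negative minus Ly-6C-positive differences of the 9 genes on the log2 scale (horizontal axis) with each array left out in turn (red, a Ly-6C-negative array; blue, a Ly-6C-positive array; the shape gives the replicate number) and with all 6 arrays (black bar). The difference of Stat5a is 0.077 without Ly-6C-negative replicate 1, Stat4 ranges from -0.37 to -0.12, and Stat6 and Socs3 have values on both sides of 0.

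By the shape of their values over the 6 arrays, the genes most like Cish were Ctsw, Fabp5 and Cd24a, with Pearson r of 0.991, 0.977 and 0.977, and those most like Stat5b were Rnf149, Fbxo32 and Phactr2, with r of 0.982, 0.979 and 0.976. The search covered 1167 genes whose SD over the 6 arrays was at least 0.2. Among these, 11 genes reached an r of 0.95 with Cish and 4 with Stat5b. With 6 arrays in 2 groups, a group difference that genes share raises r, so these values are a description.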

How the data were processed

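The authors deposited log2 values for 28853 probe sets on 6 Affymetrix arrays, between 2.47 and 13.6, with array medians of 6.25 to 6.29. RMA and Partek are named, without version or role, per the submitters' processing notes. RMA makes array distributions alike, which hides any shift that all genes share. The number of arrays limits the precision.

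By the platform annotation 21789 probe sets had 1 symbol, 1621 several, and 5443 were not listed there; 21698 were matched to a current symbol by Entrez ID. The brightest probe set per gene was kept, which left 19938 genes. The test was limma's (version 3.58.1, R 4.3.3), with lmFit and eBayes, 2-sided and without covariates. The steps were tested on simulated data whose planted differences were larger than those of the 9 genes and which held no replicate effect. Genes were named as all 9 members, the leading genes of each fixed list, and the genes most alike in pattern to the members with the largest differences. Members and lists were chosen with earlier results of these data known.

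After group means were removed, arrays that share a number had r values, over all genes, of 0.129 (replicate 1), 0.128 (replicate 2) and 0.107 (replicate 3), all above the bound of 0.1, so the numbers were read as pairs and used as a block in an alternative fit. Arrays of different numbers had r values of -0.107 to -0.011, so the lowest was as far from 0 as the value of replicate 3. The labels do not state a pairing. Promoter windows are RefSeq's for GRCm38.p6; the build of the array annotation is not given in the sources used here.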

Additional observations from a re-analysis of the deposited data

How the results depend on the processing

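None of the 9 genes passed the threshold in any of the 14 alternatives, which were all planned: a replicate block, array weights, trended and robust eBayes, quantile normalization applied again, median-centred arrays, only genes at or above the median brightness, all probe sets tested singly, probe sets averaged by gene, and each array left out in turn. The block, trended and robust eBayes, the brightness filter and all probe sets tested singly leave each member's difference as it was. Averaging probe sets by gene changes that of Socs3 alone. Unchanged values of this kind could not change direction, and they are included in the count. Of 126 values of the members under the 14 alternatives, 121 kept their direction. The 5 exceptions were Stat6 at 0.013 with array medians subtracted, at 0.046 and 0.019 without Ly-6C-negative replicates 1 and 2 and at 0.0025 without Ly-6C-positive replicate 1, and Socs3 at 0.054 without Ly-6C-negative replicate 1; 4 of the 5 come from fewer arrays, and subtraction of the medians adds 0.023 to the difference of every gene. With an array left out Stat6 ran from -0.095 to 0.046 and Socs3 from -0.19 to 0.054. The lowest adjusted p was 0.289 for Stat5b, with array weights, and, without Ly-6C-negative replicate 3, 0.367 for Stat4 and 0.374 for Cish. Over all genes the count of 29 became 45 with all probe sets tested singly and 54 with array weights, for which the cause was not tested, and 5 to 47 with an array left out. Of the 99 other pathway genes 1 to 2 passed with an array left out, and 3 with the replicate number as a block, Id2 being added; the block changed no call of the 9 genes, and the Stat5b minus Stat5a contrast of 0.052 had an exact sign-flip p of 0.25 over the pairs, the smallest that 3 pairs can give. That contrast ran from 0.0028 to 0.11 with an array left out. Stat5a rests most on a single array among the 4 genes without overlap, with 0.077 to 0.22.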
